A study of Mus musculus with 15 samples.

Results

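The response of B16-F10 cells to the compound DZNep was set against their response to an siRNA that lowers Ezh2 transcripts, each read against the control of its own arm. For every gene the measured quantity was the difference between 2 effects on the log2 scale, (DZNep − DMSO) − (siEzh2 − scr). It was taken over 12 of the 15 libraries of the series, 3 in each of 4 groups, and the other 3 libraries, treated with GSK126, were outside it. B16-F10 is an established mouse melanoma cell line that makes pigment. The groups were cells given 2 µM DZNep, cells given DMSO (the solvent control of the compounds), cells given an siRNA against Ezh2 (siEzh2) and cells given a scrambled siRNA (scr). All 4 groups were the same line, and no label describes a genetic change. Treatment times, siRNA sequences and the library preparation are not stated in the labels used here. A positive difference means that the DZNep effect lay above the siEzh2 effect, and a negative difference that it lay below it.

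EZH2 is the enzyme within the Polycomb complex PRC2 that adds methyl groups to lysine 27 of histone H3, a mark that keeps developmental genes silent. DZNep (3-deazaneplanocin A) blocks S-adenosylhomocysteine hydrolase, so that the by-product of methylation reactions accumulates, and it is known to lower PRC2 proteins as well as other methylation. The siRNA is directed at the Ezh2 transcript and not at other methyltransferases. Effects of the siRNA other than loss of Ezh2 were not tested. The question put by the contrast is which transcript changes under DZNep had no counterpart when Ezh2 transcripts were lowered.

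Total counts per library lay between 33299524 and 64545747, so 1 count was worth between 0.0155 and 0.03 CPM, the count scaled to a common library size. The share of mitochondrially encoded transcripts, which can reflect RNA quality, lay between 6.17% and 10.6%. Within each group, replicates varied beyond counting noise (chi-square per degree of freedom 7.92 to 36.2), so every library was counted. The labels do not tell whether replicates were grown as separate cultures, so the p-values reflect the spread between these libraries alone, which may be technical. All 8 melanocyte markers checked (Mitf, Sox10, Pax3, Tyr, Tyrp1, Dct, Pmel and Mlana) were expressed in every group. In these bulk samples, fewer cells of a kind and less RNA per cell cannot be told apart.

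The Ezh2 gene (minus strand of chromosome 6, 47530139 to 47595341, GRCm38, ENSMUSG00000029687) had 160.2, 156 and 150.2 CPM in DZNep libraries, against 204, 209 and 208 CPM in DMSO libraries. In the siRNA arm it had 37.6, 39.9 and 41.3 CPM with siEzh2, against 215, 227 and 215 CPM with scr. Neither pair of groups overlapped, as for 63.2% of all genes tested between DZNep and DMSO and 42% between siEzh2 and scr, and the siEzh2 libraries matched their label. The difference was 2.06 ± 0.07 (log2 ± SE, adjusted p = 4.22e-12 by edgeR's quasi-likelihood test with Benjamini-Hochberg adjustment, as for every adjusted p below), made of a DZNep effect of -0.41 and a siEzh2 effect of -2.47. So DZNep lowered Ezh2 transcripts 1.33-fold and the siRNA 5.53-fold. Gm26625, a predicted gene, lies across Ezh2 on the opposite strand, so some reads may belong to it. Ezh1, the alternative catalytic subunit, averaged 47.3 ± 3.23 CPM with DZNep and 42 ± 2.13 CPM with DMSO (SD, n = 3 each), and its difference was 0.15 ± 0.10 (adjusted p = 0.234).

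Of 15053 genes tested, 7390 (49.1%) had a called difference, with 3641 higher (24.2%) and 3749 lower (24.9%). A call is an adjusted p under 0.05. The called difference was at least 2-fold for 704 genes higher (4.68%) and 1096 genes lower (7.28%). DZNep against DMSO gave 9160 calls (60.9%), of which 4608 rose (30.6%) and 4552 fell (30.2%), and siEzh2 against scr gave 3613 calls (24%), of which 1843 rose (12.2%) and 1770 fell (11.8%). The median size of the log2 effect was 0.329 for DZNep and 0.154 for siEzh2. Over all genes tested, the median difference was -0.00092, the median DZNep effect 0.0025 and the median siEzh2 effect -0.011.

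Most called differences were in genes called with DZNep and not with siEzh2. Of the 7390, 4796 (64.9%) were called in DZNep against DMSO and not in siEzh2 against scr. A further 993 (13.4%) were called in both with opposite signs, 673 (9.11%) in both with the same sign, 657 (8.89%) only in the knockdown and 271 (3.67%) in neither. Among the 673 with the same sign, the DZNep effect was the larger for 556. Conversely, 898 genes changed the same way in both and had no called difference, and for 715 of these the 95% interval of the difference lay within 1.5-fold either way.

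**Figure D1:**
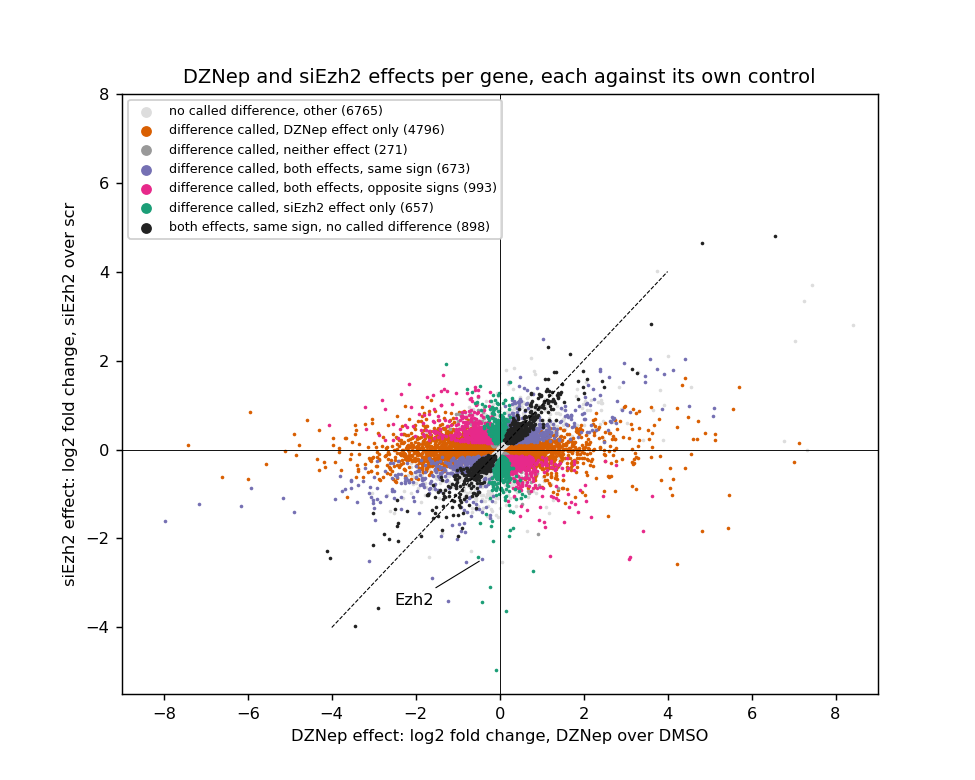
Each point is 1 of the 15053 genes tested, with the DZNep effect (log2 fold change of DZNep over DMSO) on the horizontal axis and the siEzh2 effect (log2 fold change of siEzh2 over scr) on the vertical axis, coloured by the class of its difference. Most called differences, 4796 of 7390, lie along the horizontal axis, where the DZNep effect alone was called, and the dashed line marks equal effects.

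Read from the knockdown side, 806 of the 1843 genes that rose with siEzh2 also rose with DZNep (43.7% of the knockdown list and 17.5% of the DZNep list). Another 516 (28%) fell with DZNep and 521 (28.3%) were not called. Of the 1770 genes that fell with siEzh2, 765 also fell with DZNep (43.2% of the knockdown list and 16.8% of the DZNep list). A further 477 (26.9%) rose and 528 (29.8%) were not called. Over all genes tested, 30.6% rose and 30.2% fell with DZNep. The shares that moved the opposite way (28% and 26.9%) were thus slightly below those over all genes, and the same-way shares were above them. Among the larger knockdown effects, of 149 genes at least 2-fold higher with siEzh2 (0.99% of all tested) 93 rose and 22 fell with DZNep. Of 179 at least 2-fold lower (1.19%), 103 fell and 27 rose. From the DZNep side, 757 genes rose at least 2-fold (5.03%) and 1187 fell at least 2-fold (7.89%), and the difference was called in the direction of DZNep for 584 (77.1%) and 985 (83%) of them.

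The controls differed from each other: scr against DMSO gave 3527 calls (23.4%), close to the number for siEzh2 against scr. The arm (compound or siRNA) and its control cannot be told apart. With DMSO as the control of both treatments, which compares DZNep with siEzh2 directly (chosen after seeing the data for the splits given here), 9392 genes were called (62.4%). Of the 4796 DZNep-only genes, 4514 kept a called difference of the same sign. The direct comparison reuses the DZNep and siEzh2 libraries through which these genes were selected, so this is no independent check. Of the 993 genes with opposite effects, 214 were still called opposite to DZNep when siEzh2 was set against DMSO (a comparison with 1753 calls, 11.6%), and 739 were not called. Of the 898 genes called the same way in both without a called difference, 269 had none in the direct comparison either. With siEzh2 set against DMSO, 195 of the 898 were still called the same way, 18 the other way and 685 were not called. Classes built with that control held 6874 genes called only with DZNep and 547 with opposite signs. The direct difference is given beside a gene's own where it was over 1.5 times larger or smaller, lost its call or turned round.

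Ablim1, Gbp2, Arhgef19 and Angptl6 were matched genes, called the same way in both with no called difference. They had the largest DZNep effects among those with a 95% interval of the difference within 1.5-fold and a mean of at least 2 CPM. Matched genes with wider intervals were not ranked. Ablim1, an actin-binding LIM protein, had 163, 169 and 159.9 CPM with DZNep, against 61.5, 59.6 and 55.5 CPM with DMSO, and 86.2, 87.9 and 89.7 CPM with siEzh2, against 32.6, 32.4 and 29.3 CPM with scr. Both treated groups lay above their controls, by 1.48 ± 0.06 with DZNep and 1.48 ± 0.06 with siEzh2 on the log2 scale. The difference was -0.0059 ± 0.08 (95% interval -0.17 to 0.16). Gbp2, an interferon-inducible GTPase, rose by 1.45 and 1.24, with a difference of 0.20 (-0.06 to 0.47). Arhgef19, a guanine nucleotide exchange factor, was lower by similar amounts in both (-1.58 with DZNep and -1.55 with siEzh2, interval of the difference -0.51 to 0.45), and so was Angptl6, an angiopoietin-like secreted protein (-1.55 and -1.43, -0.42 to 0.19). Ablim1 had 1.48 as its siEzh2 effect but a DZNep level above siEzh2 by 0.90 in the direct comparison (adjusted p = 4.76e-10), so its match rests on each arm's own control. The direct differences of Gbp2 (1.27), Arhgef19 (-0.59) and Angptl6 (-1.68) were called too.

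Several of the 12 largest positive differences were in genes nearly silent without DZNep. Crabp2, a carrier of retinoic acid (chromosome 3, 87948666 to 87953376), had 10.3, 11.1 and 11.1 CPM with DZNep, against 0.478, 0.536 and 0.509 CPM with DMSO. With siEzh2 it had 0.704, 0.507 and 0.503 CPM, against 0.598, 0.996 and 0.643 CPM with scr. The DZNep libraries alone stood above 10 CPM, and the difference was 4.81 ± 0.28 (adjusted p = 9.65e-10). Col14a1, a fibril-associated collagen (chromosome 15, 55307750 to 55520803), had 40.2, 39 and 39.2 CPM with DZNep, against 1.17, 1.28 and 1.08 CPM with DMSO. It had 2.05, 2.1 and 2.17 CPM with siEzh2, against 1.08, 1.63 and 1.0 CPM with scr. Both effects were called upward, and the difference of 4.32 ± 0.20 (adjusted p = 7.13e-11) had a DZNep effect of 5.08 beside 0.76 for siEzh2. Neb, the giant filament protein nebulin of skeletal muscle, had a like pattern, with 26.2, 30.7 and 31.8 CPM with DZNep, against 0.813, 0.979 and 0.786 CPM with DMSO, and effects of 5.11 and 0.94.

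Atp2a1, the calcium pump of fast skeletal muscle, averaged 8.04 ± 1.36 CPM with DZNep and 0.277 ± 0.0918 CPM with DMSO (SD, n = 3 each), with a difference of 4.52 ± 0.44 (adjusted p = 3.3e-07). Mylk3, a cardiac myosin light chain kinase, had a difference of 3.71 ± 0.57 and Ces1a, a carboxylesterase, one of 4.65 ± 0.96. Over the DZNep, DMSO, siEzh2 and scr libraries, Mylk3 had 316, 21, 18 and 15 counts, and Ces1a had 255, 13, 7 and 9. Like Mylk3 and Ces1a, the genes Prl2c5, Ripk4 and Olfr1417 rested on very few counts outside DZNep. Summed over 3 libraries, Prl2c5, a prolactin family gene, had 972 counts with DZNep, 9 with DMSO, 2 with siEzh2 and 3 with scr. The siRNA arm was at the floor of 3 counts, so its fitted difference is no bound, and without scr replicate 1 the call was lost (4.21, adjusted p = 0.917). Ripk4, a kinase of epithelial differentiation, had 319, 8, 5 and 3 counts in the same order of groups, with scr at the floor, and its call was lost without scr replicate 2 (adjusted p = 0.147). Olfr1417, an olfactory receptor, had 267 counts with DZNep and 9, 14 and 13 in the DMSO, siEzh2 and scr groups.

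Several of the 12 largest negative differences were in genes at very low levels with DZNep. Akr1b7, an aldo-keto reductase (chromosome 6, 34412334 to 34423142), had 0.0295, 0.0953 and 0.0226 CPM with DZNep, against 15.9, 11.7 and 12.4 CPM with DMSO. It had 10.7, 14.6 and 11.5 CPM with siEzh2, against 39.7, 39.5 and 33 CPM with scr. All treated libraries lay below their controls, the siEzh2 and DMSO libraries overlapped with scr highest, and the DZNep value stood on 6 counts in all. The difference was -6.36 ± 0.42 (adjusted p = 2.77e-08), from effects of -7.98 with DZNep and -1.61 with siEzh2. Apobr, a receptor for apolipoprotein B in lipoproteins, had 0.295, 0.0953 and 0.181 CPM with DZNep, against 7.7, 6.71 and 5.1 CPM with DMSO, while the siRNA groups lay between 6.63 and 9.41 CPM. Its difference was -5.08 ± 0.35 (adjusted p = 2.43e-08), and its reads may be shared with Cln3 and Il27 on the other strand.

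Mpv17l, a mitochondrial and peroxisomal membrane protein, averaged 1.64 ± 0.497 CPM with DZNep and 16.5 ± 1.23 CPM with DMSO, and 16.4 ± 0.845 CPM with siEzh2 and 15.1 ± 0.767 CPM with scr (SD, n = 3 each). The drop under DZNep had no counterpart call in the knockdown, and the difference was -3.46. Egr1, an immediate-early transcription factor, fell with DZNep (-2.55) and rose with siEzh2 (0.57), giving a difference of -3.12 ± 0.32 (adjusted p = 6.68e-07). Sphk1, which makes the lipid signal sphingosine-1-phosphate, had a difference of -3.65, Tubb4a, a beta tubulin, one of -3.26, Mmp11, a secreted metalloproteinase, one of -3.21, and Apba1, a neuronal adaptor protein, one of -3.20. Nxpe4 and Smim4 completed the 12, at -2.95 and -2.88. Smim4 overlaps Pbrm1 on the other strand, and Mmp11 overlaps Chchd10.

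The 4 leading genes with opposite effects were Poln, Spdya, Pak3 and Tinagl1. Poln, a DNA polymerase, had 10.2, 8.82 and 9.03 CPM with DZNep, against 0.885, 0.746 and 0.663 CPM with DMSO. It had 0.734, 0.938 and 1.03 CPM with siEzh2, against 1.97, 1.87 and 1.85 CPM with scr. It was above its control with DZNep and below it with siEzh2, with a difference of 4.68 ± 0.21 (adjusted p = 3.54e-11), and it overlaps Haus3 on the same strand. Tinagl1, a secreted basement membrane protein, moved the same ways (2.16 with DZNep, -1.52 with siEzh2). Relative to DMSO the siEzh2 effect was 0.27 for Poln and -0.087 for Tinagl1, and their direct differences were 3.35 and 2.25. Spdya, an activator of cyclin-dependent kinases, and Pak3, a p21-activated kinase, did the reverse. Pak3 had 0.413, 0.429 and 0.339 CPM with DZNep, against 3.47, 2.14 and 2.65 CPM with DMSO, and 5.35, 4.94 and 5.3 CPM with siEzh2, against 2.29, 2.71 and 2.21 CPM with scr. The difference was -3.91 ± 0.26 for Pak3 and -4.17 ± 0.32 for Spdya.

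Differences in genes called with siEzh2 against scr and not with DZNep were fewer, and were led by genes lower with siEzh2 than with scr. With siEzh2 set against DMSO, 154 of these 657 genes kept their siEzh2 call, 13 were called the other way and 490 were not called. The direct comparison left 332 of the 657 without a called difference. Stra6, the cell-surface receptor that takes up retinol, had 0.325, 0.429 and 0.498 CPM with DZNep, against 0.383, 0.35 and 0.401 CPM with DMSO. It had 0.306, 0.304 and 0.228 CPM with siEzh2, against 3.36, 3.67 and 3.27 CPM with scr. The scr libraries alone stood above 3 CPM, and the DZNep, DMSO and siEzh2 libraries lay between 0.228 and 0.498 CPM. The difference of 3.77 ± 0.32 (adjusted p = 7.91e-08) was 0.61 (adjusted p = 0.0798) in the direct comparison of DZNep with siEzh2. Traf3ip3, an adaptor of immune cell signalling, and Tmem119, a membrane protein of bone and microglia, showed the same picture, with averages of 0.315 ± 0.0461 and 0.405 ± 0.32 CPM with siEzh2 and 2.74 ± 0.423 and 2.09 ± 0.409 CPM with scr (SD, n = 3 each). Their direct differences were -0.86 (adjusted p = 0.0541) and -0.08 (adjusted p = 0.903), and the call of Tmem119 was also lost without DZNep replicate 3 (adjusted p = 0.0975). Prex1, an exchange factor for Rac, averaged 1.4 ± 0.106 CPM with siEzh2 and 4.92 ± 0.56 CPM with scr, with a difference of 2.04 ± 0.20 (1.10 in the direct comparison).

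Most p53 target genes were higher in the difference, and most rose with DZNep. Of 36 tested members, 23 were higher in the difference and 6 lower, with a median difference of 0.84. With DZNep 25 rose and 6 fell, with siEzh2 3 rose and 9 fell, and the direct comparison gave 25 higher and 6 lower. Their summed level was 3416 to 3558 CPM with DZNep, against 1446 to 1489 CPM with DMSO, and 1393 to 1429 CPM with siEzh2, against 1431 to 1496 CPM with scr. The DZNep libraries stood far above the other 9 on that sum, and the siEzh2 libraries lay slightly below both controls.

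Cdkn1a and Gtse1 are shown with their promoters, as the list members with the smallest p whose window carries the p53 consensus decamer (searched on both strands). The windows run from 250 bases before to 50 bases after the RefSeq start (GRCm38.p6), 5′ to 3′ on the gene's strand, and capitals mark the decamer.
Cdkn1a (chr17:29090729-29091028, strand +): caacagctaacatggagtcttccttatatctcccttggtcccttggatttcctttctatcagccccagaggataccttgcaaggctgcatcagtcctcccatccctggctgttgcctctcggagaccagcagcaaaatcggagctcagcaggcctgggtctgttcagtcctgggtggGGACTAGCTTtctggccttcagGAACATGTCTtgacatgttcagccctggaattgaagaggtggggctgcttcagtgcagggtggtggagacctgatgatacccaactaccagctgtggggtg
Gtse1 (chr15:85859696-85859995, strand +): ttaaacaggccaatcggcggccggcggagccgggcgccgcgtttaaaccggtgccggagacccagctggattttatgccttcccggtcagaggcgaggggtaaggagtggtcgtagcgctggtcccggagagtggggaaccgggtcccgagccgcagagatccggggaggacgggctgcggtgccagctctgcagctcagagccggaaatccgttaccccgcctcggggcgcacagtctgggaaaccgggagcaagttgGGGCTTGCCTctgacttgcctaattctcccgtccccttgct
The decamer occurred in 857 of 10336 promoter windows of tested genes (8.29%), and in 13 of the 29 p53 list members that had a window (44.8%). A match describes the letters only.

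Cdkn1a, the p21 inhibitor of cyclin-dependent kinases (chromosome 17, 29090976 to 29100727), had 642, 656 and 736 CPM with DZNep, against 119.8, 124 and 116 CPM with DMSO. It had 129, 135 and 121 CPM with siEzh2, against 129, 150.2 and 142 CPM with scr. The DZNep libraries lay far above all 9 others. The DZNep effect was 2.50 ± 0.07 and the difference 2.63 ± 0.10 (adjusted p = 4.9e-12). Gtse1, which binds p53 and acts in G2 and M phase, had 142, 145 and 139.5 CPM with DZNep, against 40.1, 42.1 and 42.5 CPM with DMSO, and 35.2, 34.4 and 34.5 CPM with siEzh2, against 41.8, 39.8 and 42.6 CPM with scr. It rose with DZNep and fell slightly with siEzh2, with a difference of 2.03 ± 0.07 (adjusted p = 3.58e-12). Plk2, a polo-like kinase, averaged 27.9 ± 1.5 CPM with DZNep and 4.13 ± 0.0932 CPM with DMSO (SD, n = 3 each), with a difference of 3.11 ± 0.13.

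Other p53 targets, chosen after their values were seen, were called by role as follows. Of 12 arrest genes, 7 were higher, among them Btg2, an antiproliferative cofactor (2.51), and Ccng1, cyclin G1 (1.85). Of 9 death genes, 7 were higher, among them the death receptor Fas (61 counts over the DZNep libraries and 3, 10 and 7 over those of DMSO, siEzh2 and scr, with DMSO at the floor), the membrane protein Perp (1.88) and the mitochondrial pore former Bax (0.92). Of 15 feedback and repair genes, 9 were higher, among them Mdm2, the ligase that degrades p53 (1.30), and 4 were lower, led by Rrm2b, a ribonucleotide reductase subunit (-0.77 ± 0.13, adjusted p = 0.000121). Rrm2b had 36.2, 30.1 and 29.8 CPM with DZNep, against 64.7, 60.1 and 50.2 CPM with DMSO.

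In the Ink4 and Cip/Kip list of cell cycle inhibitors, 5 members were tested. Cdkn1a and Cdkn2d (0.55) were higher and Cdkn1b, which encodes p27, was lower (-0.50). In the BCL2 family, which sets the threshold for cell death, 6 of 13 members were higher and 5 lower (3 lower without DMSO replicate 1 or siEzh2 replicate 3). Bcl2l11, the death activator BIM, was higher by 1.41 ± 0.11, and the survival factor Bcl2l1 by 1.07 ± 0.09. The survival factor Bcl2 was lower (-1.15), as was the death activator Bmf (-1.06). So both arms of the family held members in either direction.

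The targets of ATF4, the transcription factor of the integrated stress response, moved the other way. Of 46 members, 35 were lower in the difference and 3 higher, with a median of -0.62. With DZNep 40 fell and 2 rose (median -0.82). With siEzh2 against scr 26 fell (median -0.22), and 20 members with a called difference fell in both. Over all 46 members, the median was further below 0 with DZNep than with siEzh2. With DMSO as control, siEzh2 had 1 lower and 2 higher, and the direct comparison gave 41 lower and 3 higher.

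Promoters of the 3 members with the smallest p that hold the motif are shown. The motif is the CCAAT-enhancer-binding protein and ATF response element, TGATGNAA, searched on both strands. Windows, build and source are as above, and capitals mark the element, here read from its other strand.
Vldlr (chr19:27216770-27217069, strand +): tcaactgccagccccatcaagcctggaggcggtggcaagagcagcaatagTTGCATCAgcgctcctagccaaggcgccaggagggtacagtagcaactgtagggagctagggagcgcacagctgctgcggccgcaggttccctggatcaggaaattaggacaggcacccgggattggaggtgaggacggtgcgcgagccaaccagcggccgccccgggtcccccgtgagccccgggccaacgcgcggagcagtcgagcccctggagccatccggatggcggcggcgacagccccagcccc
Chac1 (chr2:119350992-119351291, strand +): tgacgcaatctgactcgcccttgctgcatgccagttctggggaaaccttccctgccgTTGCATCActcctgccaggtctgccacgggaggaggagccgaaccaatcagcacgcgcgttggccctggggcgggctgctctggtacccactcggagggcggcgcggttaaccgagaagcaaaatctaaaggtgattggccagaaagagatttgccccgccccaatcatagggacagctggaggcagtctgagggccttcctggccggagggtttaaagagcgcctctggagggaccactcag
Slc1a4 (chr11:20332664-20332963, strand -): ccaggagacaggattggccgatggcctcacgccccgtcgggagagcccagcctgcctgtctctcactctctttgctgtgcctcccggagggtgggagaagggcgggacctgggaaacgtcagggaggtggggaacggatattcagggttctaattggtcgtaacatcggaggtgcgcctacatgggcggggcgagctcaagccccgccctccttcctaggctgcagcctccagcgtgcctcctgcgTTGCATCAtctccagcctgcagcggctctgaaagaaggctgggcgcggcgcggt
The element occurred in 278 of 10336 windows of tested genes (2.69%) and in 16 of the 37 ATF4 list members with a window (43.2%). Of 13248 windows searched, 1 held overlapping matches of this element and the p53 decamer.

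Vldlr, the very low density lipoprotein receptor, had 11.1, 12.6 and 9.96 CPM with DZNep, against 84.9, 67.8 and 67.5 CPM with DMSO. It had 80.5, 87.3 and 85.2 CPM with siEzh2, against 96.7, 95 and 85.5 CPM with scr. The DZNep libraries lay far below every other library, and the difference was -2.58 ± 0.13 (adjusted p = 1.11e-09). Chac1, a glutathione-degrading enzyme, had 9.27, 11.1 and 12.6 CPM with DZNep, against 72.6, 64.1 and 65.3 CPM with DMSO, and 59.2, 65.5 and 61 CPM with siEzh2, against 79.1, 83.1 and 66.4 CPM with scr. It fell in both, and the difference was -2.31 ± 0.14 (adjusted p = 6.78e-09). Atf5, a transcription factor of the same response, averaged 75.5 ± 11.2 CPM with DZNep and 349 ± 22.2 CPM with DMSO (SD, n = 3 each), with a difference of -1.89 ± 0.12.

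By role, 11 of 13 factors and regulators were lower, with Atf4 itself at -0.76, Trib3, a pseudokinase, at -2.27 and Ddit3, the factor CHOP, at -1.44 (direct -2.47). Of 20 amino acid synthesis and transport genes, 15 were lower, among them the neutral amino acid transporter Slc1a4 (-1.44), Asns, asparagine synthetase (-1.19), and Cth, which makes cysteine from cystathionine (-1.59). The amino acid transporter Slc7a3 was higher (2.83, direct 1.86). Of 13 tRNA charging genes, 9 were lower and 2 higher, Mars (0.25) and Wars. Wars, the tryptophan tRNA synthetase, was the first by p of those higher (0.63 ± 0.08, direct 0.14), with a DZNep effect of 0.04 (adjusted p = 0.583) and a siEzh2 effect of -0.60. Members other than Vldlr, Chac1, Atf5, Cth and Wars were chosen after their values were seen.

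**Figure D2:**
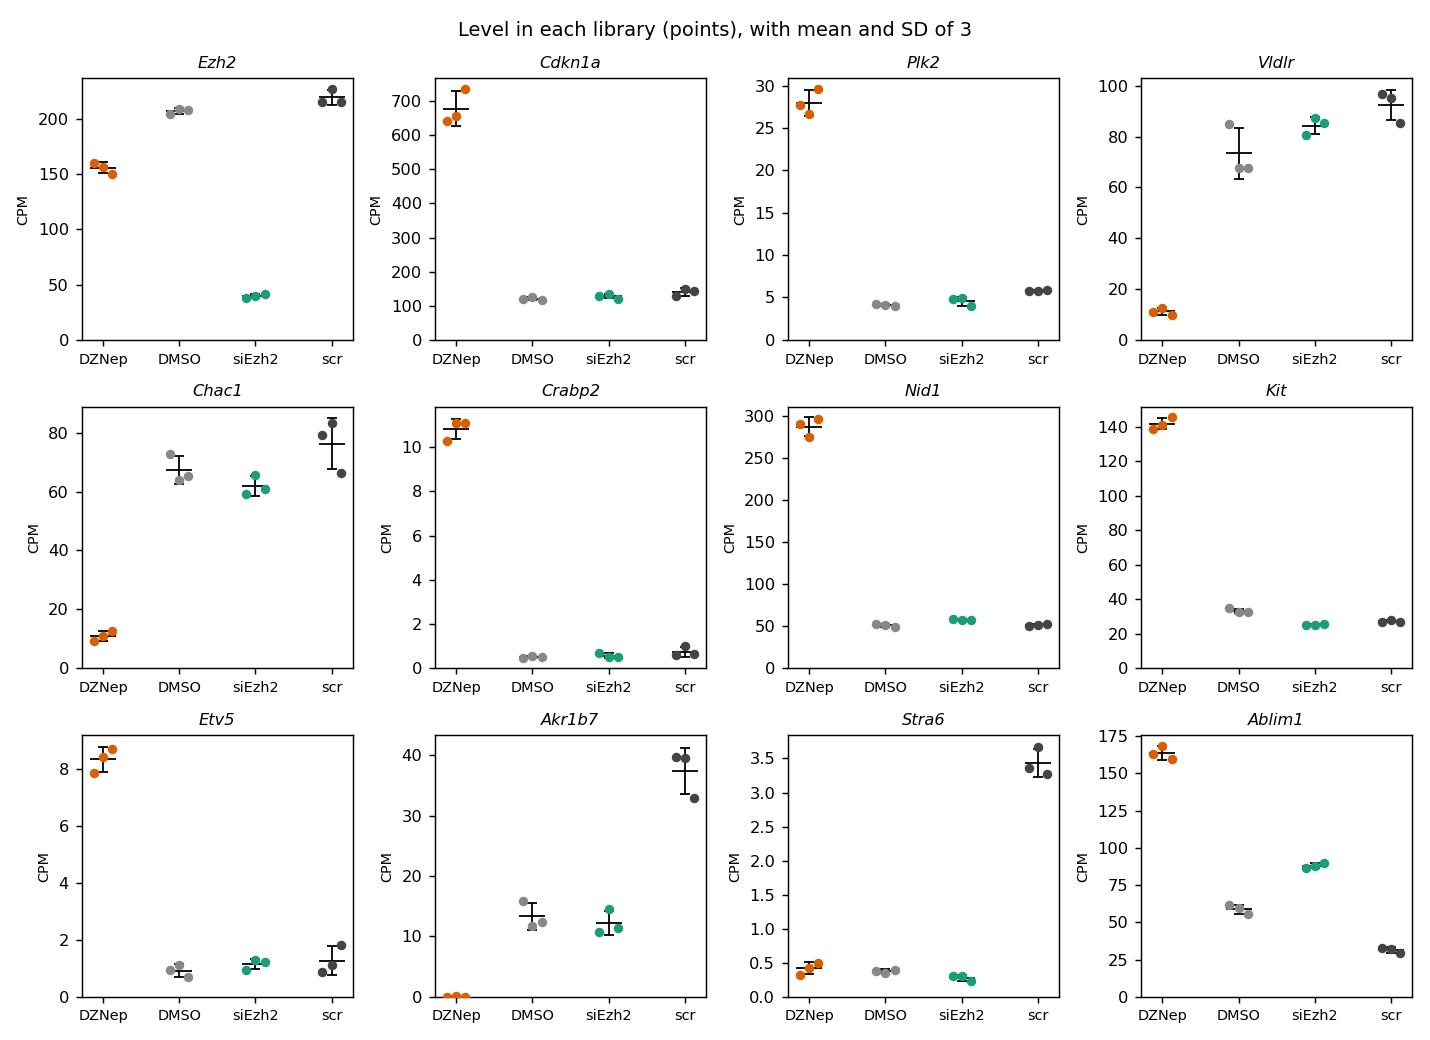
Level in CPM (vertical axis, from 0) of 12 genes, chosen after their values were seen, in each of the 12 libraries, as points, with the mean and SD of 3 libraries per group. Groups run DZNep, DMSO, siEzh2 and scr from left to right, and genes such as Cdkn1a stand apart in the DZNep libraries (642 to 736 CPM), while Ezh2 is lowest with siEzh2.

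Genes of cell division were higher in the difference as a group. Of 51 G2 and M phase genes, 43 were higher and the other 8 were not called, with a median of 0.50. With DZNep 45 rose and with siEzh2 8 fell, and the direct comparison gave 48 higher. Their summed level was 6953 to 7533 CPM with DZNep, against 4987 to 5691 CPM with DMSO, while the siEzh2 and scr ranges overlapped. Gtse1 stands in this list too. Psrc1, a spindle protein that is also a known p53 target, had a difference of 2.11 ± 0.08, and Cdc25b, a phosphatase that starts mitosis, one of 1.48 ± 0.07. Cdc25b averaged 171 ± 3.42 CPM with DZNep and 78.4 ± 4.19 CPM with DMSO, and 72.5 ± 2.99 CPM with siEzh2 and 92.9 ± 0.482 CPM with scr (SD, n = 3 each).

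S phase genes had called effects in both treatments. Of 46 members, 36 were higher and 1, Dscc1, a factor of sister chromatid cohesion, lower (-0.53), with a median of 0.43. With DZNep 27 rose and 6 fell, and with siEzh2 26 fell, so 15 members were called with opposite signs. With DMSO as its control, siEzh2 had 8 lower and 1 higher, and the direct comparison gave 35 higher and 2 lower. Mcm10, a replication initiation factor, had a difference of 0.97 ± 0.07, Cdc6, which loads the replicative helicase, one of 0.93 ± 0.08, and Cdc45, a part of that helicase, one of 0.77 ± 0.08. For Cdc45 the siEzh2 effect of -0.56 was larger in size than the DZNep effect of 0.21, and its direct difference was 0.41.

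Ribosome biogenesis genes showed the same split. Of 49 members, 33 were higher and 2 lower, with a median of 0.42. With DZNep 28 rose and 6 fell, and with siEzh2 19 fell. Against DMSO, siEzh2 had 6 lower and 0 higher (median -0.046), and the direct comparison gave 33 higher and 4 lower. The 3 members with the smallest p were Nop2, an rRNA methyltransferase (1.05 ± 0.08), Nop16, a nucleolar protein (1.03 ± 0.09), and Nip7, an assembly factor of the large subunit (0.83 ± 0.08). Npm1, the abundant nucleolar chaperone, was lower (-0.53 ± 0.08, adjusted p = 4.72e-05).

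**Figure D3:**
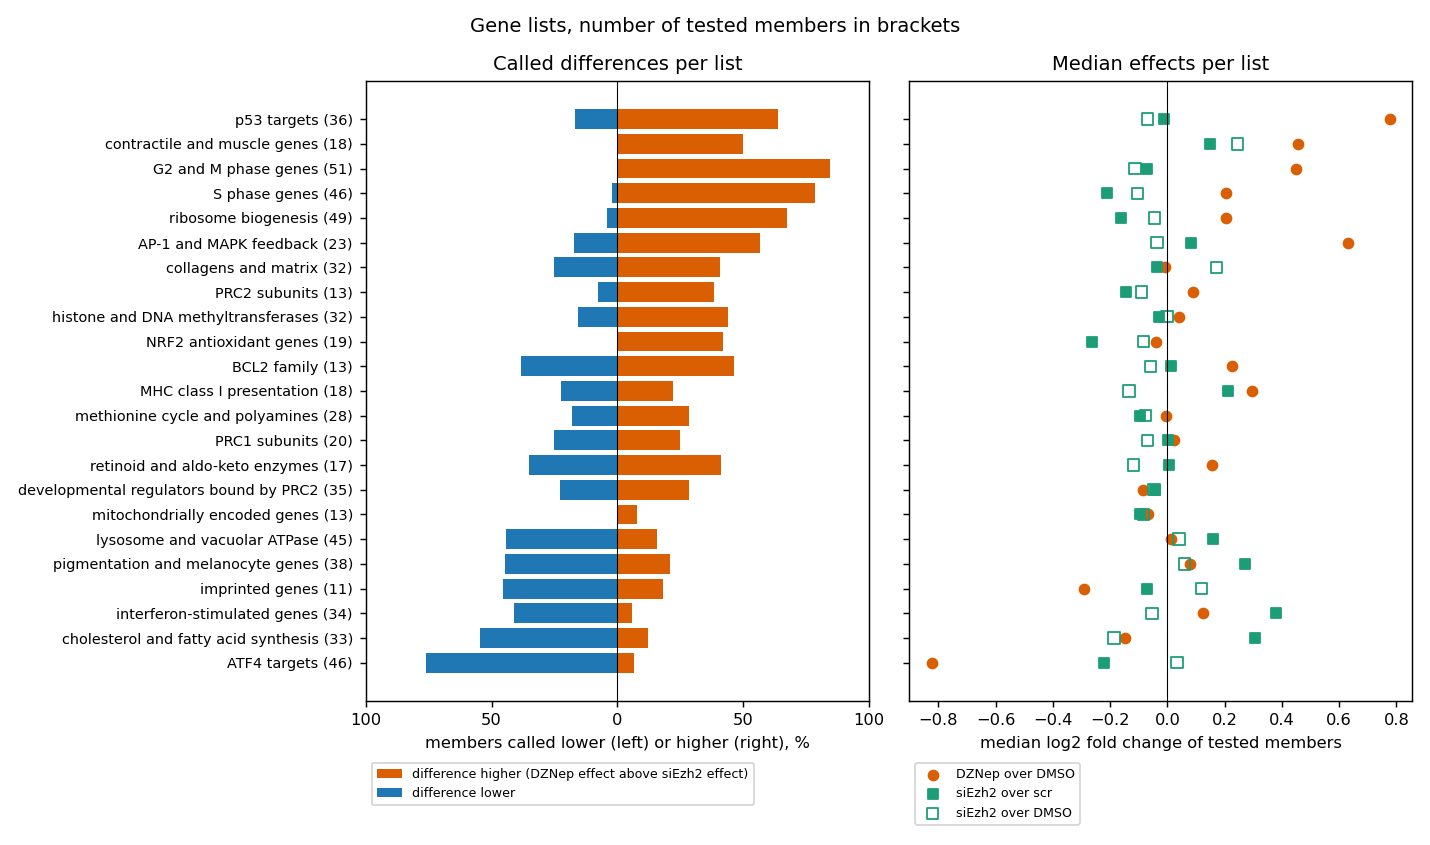
Gene lists, with the number of tested members in brackets. The left panel gives the percentage of members called lower (left of 0) or higher (right of 0) in the difference, and the right panel the median log2 effect of DZNep over DMSO, of siEzh2 over scr and of siEzh2 over DMSO. The p53 list leans right and the ATF4 list left, and the open squares show where the knockdown median moves with its control.

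Among PRC2 subunits, 5 of 13 tested members were higher and 1 lower (7 and 3 in the direct comparison). The 46.2% called was near the 49.1% over all genes tested. The members higher include Ezh2, the target of the siRNA, whose difference follows from the knockdown itself. Besides Ezh2, Eed, the subunit that reads the methyl mark, had 42.2, 42.1 and 40.8 CPM with DZNep, against 29.9, 31.6 and 30.7 CPM with DMSO, while the siRNA groups lay between 28.6 and 29.3 CPM. Its difference was 0.45 ± 0.07 (adjusted p = 6.88e-05). Suz12, the core scaffold, had a difference of 0.03 (adjusted p = 0.775), and a called one of -0.12 in the direct comparison. Jarid2, which helps recruit the complex, was lower (-0.46 ± 0.08), with opposite effects of -0.26 and 0.20. In PRC1, the complex that ubiquitinates histone H2A, 5 of 20 members were higher and 5 lower (3 higher without siEzh2 replicate 2 or scr replicate 3). The PRC1 shares are near those over all genes tested. Pcgf3, a RING-finger subunit, was lower (-1.04 ± 0.07, and -0.35 in the direct comparison), as was Pcgf1 (-0.73), and Cbx2, a reader of the PRC2 mark, was higher (0.66 ± 0.09).

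The pathway that DZNep blocks and the enzymes that depend on it were also listed. In the methionine cycle and polyamine list, 8 of 28 members were higher and 5 lower (46.4% called, near the 49.1% over all genes, with a median of 0.08), with 3 lower on library totals alone or without DZNep replicate 1, DMSO replicate 1 or scr replicate 2. Ahcy, the hydrolase that DZNep inhibits, had a difference of 0.35 ± 0.15 (adjusted p = 0.0605). Odc1, which begins polyamine synthesis, had 102, 107 and 109.8 CPM with DZNep, against 72.8, 71.6 and 77.3 CPM with DMSO. It had 65.9, 79 and 73 CPM with siEzh2, against 111, 127 and 104 CPM with scr. The scr libraries stood above DMSO and the siEzh2 libraries overlapped DMSO. Its difference was 1.17 ± 0.11 (adjusted p = 1.34e-07) with each arm's own control and 0.55 in the direct comparison. Sat1, which acetylates polyamines for export, averaged 88.2 ± 4.15 CPM with DZNep and 36.6 ± 4.62 CPM with DMSO (SD, n = 3 each), and its difference of 1.27 ± 0.12 came from DZNep. Azin1, an inhibitor of antizyme, was lower (-0.75, direct -0.49), as was Mat2a, which makes S-adenosylmethionine (-0.59, named after its value was seen).

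Of 32 histone and DNA methyltransferase genes, 14 were higher and 5 lower (median 0.17), with 3 lower on library totals alone or without scr replicate 3. The 3 with the smallest p were the arginine methyltransferases Prmt5 (0.68 ± 0.07) and Carm1 (0.62 ± 0.08) and the H3 lysine 9 enzyme Suv39h1 (0.62 ± 0.10). Setd1b, an H3 lysine 4 enzyme, was lower (-0.82 ± 0.17). Prmt5 averaged 128 ± 0.677 CPM with DZNep and 88.1 ± 1.37 CPM with DMSO, and 76.6 ± 2.24 CPM with siEzh2 and 84.6 ± 2.28 CPM with scr (SD, n = 3 each).

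Developmental regulators that PRC2 is known to bind did not move together. Only 35 of 86 listed genes had enough counts to be tested, and a gene that passes only through the group where it is high must differ, so the counts are a description of the 35. The same holds for the imprinted, germline, contractile, matrix, marker, retinoid, aldo-keto, protocadherin and contactin genes below. Of the 35, 10 were higher and 8 lower, again near the shares over all genes. Hoxb9, a posterior homeobox factor, had 0.502, 0.715 and 0.86 CPM with DZNep, against 9.16, 6.73 and 6.72 CPM with DMSO. It had 7.5, 7.45 and 5.94 CPM with siEzh2, against 14.9, 16.9 and 15.4 CPM with scr. It fell in both, further with DZNep, with a difference of -2.22 ± 0.23 (adjusted p = 1.02e-06). Hoxa7 was lower (-1.39 ± 0.15), and Hoxa11 was higher (1.36 ± 0.18). Hoxa7 and Hoxa11 overlap antisense transcripts, which the counts cannot separate.

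Of 28 imprinted genes 11 were tested, with 2 higher and 5 lower (2 and 6 in the direct comparison). Peg10, a paternally expressed gene of retroviral origin, had 731, 696 and 808 CPM with DZNep, against 127, 140.2 and 109 CPM with DMSO. It had 159.8, 145 and 178 CPM with siEzh2, against 116, 109 and 131 CPM with scr. It rose in both, by 2.57 with DZNep and 0.44 with siEzh2, and its neighbour Sgce was lower in the difference (-0.82 ± 0.09). Mest, also paternally expressed, went opposite ways, with a difference of 1.43 ± 0.14. The growth inhibitor Cdkn1c fell in both (-3.03 with DZNep and -2.14 with siEzh2), and its difference of -0.88 ± 0.62 was not called (adjusted p = 0.25), while the direct difference was called (-3.67).

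Germline genes are often silenced by methylation, and 6 of 25 listed were tested, with 2 higher and 2 lower. Tuba3b, a testis tubulin, had 86 counts over the DZNep libraries and 2, 6 and 15 over those of DMSO, siEzh2 and scr. The DMSO group was at the floor of 3 counts, so the fitted difference is no bound. Rhox5, a homeobox gene of the testis, had 82 counts with DZNep and 8, 15 and 9 in the same other groups, and its call was lost without scr replicate 1 (adjusted p = 0.0752), which left 1 member of the list higher. Ddx4, the germ cell helicase, was lower (-0.87 ± 0.24).

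More pigment genes were lower in the difference than higher, and most rose with siEzh2 relative to scr. Of 38 members, 17 were lower and 8 higher (median -0.21), with 5 higher without siEzh2 replicate 3. With DZNep 17 rose and 9 fell, and with siEzh2 23 rose. With DMSO as control, siEzh2 had 7 higher and 4 lower, and the direct comparison gave 13 higher and 12 lower, so the counts moved with the control. Kit, the stem cell factor receptor, had 139, 141 and 146 CPM with DZNep, against 34.8, 32.7 and 32.5 CPM with DMSO. It had 25.1, 25 and 25.8 CPM with siEzh2, against 27, 28.1 and 26.9 CPM with scr. The DZNep libraries alone stood high, with a DZNep effect of 2.09 ± 0.05 (adjusted p = 6.37e-15) and a called difference.

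Mlph, melanophilin, which links melanosomes to the cytoskeleton, had 274, 273 and 249.7 CPM with DZNep, against 454, 442 and 413 CPM with DMSO. It had 426, 391 and 409.7 CPM with siEzh2, against 186, 192 and 180.2 CPM with scr. It fell with DZNep and rose with siEzh2, and the siEzh2 libraries lay nearer DMSO than scr. Its difference was -1.85 with each arm's own control and -0.62 in the direct comparison. Mc1r, the melanocortin receptor, went the same ways (-0.83 with DZNep and 0.55 with siEzh2, difference -1.38 ± 0.08), and so did Dct, dopachrome tautomerase, a melanin synthesis enzyme (-0.82 and 0.37, -1.19 ± 0.11). Mc1r overlaps annotated genes on both strands. Tyr, tyrosinase, the first enzyme of the pathway, was higher in the difference (0.41, named after its value was seen), a call lost in the direct comparison (0.10).

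Of 45 lysosome and vacuolar ATPase genes, 20 were lower and 7 higher with each arm's own control (median -0.18), against 19 lower and 16 higher in the direct comparison. Asah1, acid ceramidase, fell with DZNep and rose with siEzh2 (difference -1.27 ± 0.07). Glb1, lysosomal beta-galactosidase, fell in both (-0.92 ± 0.08) and Sgsh, which degrades heparan sulfate, was lower (-0.92 ± 0.08). Ctsz, the protease cathepsin Z, was higher (0.77 ± 0.10).

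Cholesterol synthesis genes had opposite effects that rested on the control. Of 24 cholesterol members, 17 were lower and 1 higher, with DZNep 15 fell and 3 rose, and with siEzh2 21 rose against scr. In the whole list of 33, with 9 fatty acid genes, 18 were lower and 4 higher, and 14 were called with opposite signs. With DMSO as control, siEzh2 had 11 of the 24 cholesterol members lower (median -0.23), and the direct comparison gave 5 higher and 5 lower. Msmo1, a sterol oxidase, had 182, 196 and 179.9 CPM with DZNep, against 251, 273 and 287 CPM with DMSO. It had 242, 230.5 and 213 CPM with siEzh2, against 161, 159.8 and 167 CPM with scr. Its difference of -1.03 ± 0.09 (adjusted p = 7.02e-08) had a DZNep effect of -0.54 and a siEzh2 effect of 0.49. Insig1, which holds back the SREBP factors, had a difference of -0.80 ± 0.08. In the direct comparison Msmo1 was at -0.30 and Insig1 at -0.27. Fads1, a fatty acid desaturase, was higher (0.37 ± 0.07).

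More interferon-stimulated genes were lower than higher, and most rose with siEzh2 relative to scr. Of 34 members, 14 were lower and 2 higher (median -0.33), with DZNep 14 rose and 6 fell, and with siEzh2 24 rose. The 47.1% called was near the 49.1% over all genes tested, of which 24.9% were lower and 24.2% higher. Only 1 member was higher by DESeq2 or without DZNep replicate 2, DMSO replicate 2, siEzh2 replicates 1 or 3, or scr replicates 2 or 3. The direct comparison gave 12 higher and 4 lower, the opposite lean. The summed level was 529.6 to 565 CPM with DZNep, against 519 to 528 CPM with DMSO, and 484 to 498 CPM with siEzh2, against 388 to 404 CPM with scr. The scr libraries stood lowest. Ddx58, the RNA sensor RIG-I, was lower (-0.75 ± 0.10), as were Cmpk2 (-0.78 ± 0.10) and Eif2ak2, the kinase PKR (-0.53 ± 0.08), while Gbp3, an interferon-inducible GTPase, was higher (0.81 ± 0.15). In the direct comparison the call of Ddx58 was lost (-0.15), and the values were -0.28 for Cmpk2, -0.18 for Eif2ak2 and 1.31 for Gbp3.

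For MHC class I presentation, 4 of 18 members were higher and 4 lower, near the shares over all genes, against 14 higher and 2 lower in the direct comparison. Summed over the list, levels were 4378 to 4662 CPM with DZNep, against 2791 to 3124 CPM with DMSO, and 2474 to 2700.3 CPM with siEzh2, against 2111 to 2347 CPM with scr. Each treated range lay above its control's. Calr, the chaperone calreticulin, was higher (0.77 ± 0.10, adjusted p = 7.31e-06), as was Tap1, a peptide transporter (0.64 ± 0.15), and the class I heavy chain H2-Q4 (-0.60 ± 0.11) and the peptide trimmer Erap1 (-0.52 ± 0.12) were lower. Their direct differences were 1.33 for Calr, 0.99 for Tap1, -0.33 for H2-Q4 and -0.26 for Erap1. H2-Q4 belongs to a family of near-identical genes, so its reads are uncertain.

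Feedback genes of the MAPK pathway were higher with DZNep. In the list of 23 AP-1 and MAPK feedback genes, 13 were higher and 4 lower (15 and 4 in the direct comparison, median 0.37), and with DZNep 15 rose and 4 fell. Dusp6, the ERK phosphatase, had 169, 158 and 167 CPM with DZNep, against 57.8, 64.1 and 60.6 CPM with DMSO. It had 50.2, 49.8 and 45.1 CPM with siEzh2, against 52.6, 62.1 and 64.3 CPM with scr. It rose with DZNep and fell with siEzh2, with a difference of 1.74 ± 0.10 (adjusted p = 9.17e-10). Etv5, an ETS factor downstream of ERK, averaged 8.33 ± 0.442 CPM with DZNep and 0.918 ± 0.223 CPM with DMSO (SD, n = 3 each), and its difference was 3.31 ± 0.32. Egr1 went the other way, as given above. Jun was lower (-0.99 ± 0.09) with a siEzh2 effect of 1.11, and in the direct comparison this call was lost (-0.12).

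NRF2 antioxidant genes, which defend against oxidative stress, had 8 of 19 members higher and the other 11 not called. The 42.1% called was below the 49.1% over all genes tested, of which 24.2% were higher and 24.9% lower. In the direct comparison 9 were higher and 4 lower. By DESeq2, with no count filter, with all 15 libraries, or without DZNep replicate 3 or DMSO replicate 3, 1 member was called lower. With siEzh2 11 fell. Osgin1, an oxidative stress growth inhibitor, had a difference of 1.37 ± 0.11, Gclm, a subunit of the enzyme that begins glutathione synthesis, one of 1.09 ± 0.09, and G6pdx, which supplies NADPH, one of 0.84 ± 0.08. Osgin1 had a siEzh2 effect of -1.16 relative to scr, and its difference was 0.47 in the direct comparison. G6pdx overlaps Ikbkg on the other strand.

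Muscle and matrix genes held several of the largest differences. Of 18 tested of 42 contractile genes, 9 were higher and the other 9 not called. The 50% called was near the 49.1% over all genes tested, and the direct comparison gave 9 higher and 2 lower. Neb and Atp2a1 are given above, and Smtn, smoothelin, was at 0.63 ± 0.08 (direct 0.41). Of 32 tested of 47 matrix genes, 13 were higher and 8 lower, and 11 higher and 14 lower in the direct comparison. Nid1, a basement membrane linker protein, had 290.4, 275 and 297 CPM with DZNep, against 52.7, 52.1 and 49.2 CPM with DMSO. It had 58.7, 57.5 and 57.7 CPM with siEzh2, against 50.1, 51.2 and 52.6 CPM with scr. Only the DZNep libraries stood far apart, with a difference of 2.31 ± 0.07 (adjusted p = 2.49e-12). Col4a1, a basement membrane collagen, was lower (-1.45 ± 0.09), and Col5a3, a fibrillar collagen, was lower (-0.77 ± 0.09, direct -1.33).

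Markers of other cells moved beside these genes, and their part in the result was not tested. Of 12 fibroblast markers 8 were tested, with 4 higher and 1 lower. Their summed level was 405 to 424 CPM with DZNep, against 196 to 235 CPM with DMSO, and 200.2 to 207 CPM with siEzh2, against 201 to 202 CPM with scr. Most of that sum was Fbln1 (345 CPM with DZNep and 186 CPM with DMSO). Postn, periostin, had a difference of 1.69 ± 0.14, Fbln1, fibulin 1, one of 0.93, Col1a2 one of 1.05 and Pdgfra one of -1.14. In the direct comparison Col1a2 turned round to -0.55 and Pdgfra to 0.50. The defining marker Thy1 had no count, and Dcn and Col3a1 had 3 and 5 counts over 12 libraries. Of 16 blood and endothelial markers 3 were tested, with 1 higher and 1 lower, and their summed level was 16.4 to 17 CPM with DZNep, against 7.46 to 9.64 CPM with DMSO, and 14.4 to 14.9 CPM with siEzh2, against 4.37 to 5.19 CPM with scr. Vwf, von Willebrand factor, made up most of it (difference -1.45 ± 0.18, lost in the direct comparison), while Cd3e, Itgam, Adgre1 and Cdh5 had no count and Ptprc 3. Of 8 keratinocyte markers only Cdh1, E-cadherin, was tested (0.93 ± 0.15), and Krt5 and Krt14 had no count. Of 13 mitochondrially encoded genes, 1, mt-Co3, had a called difference (0.62 ± 0.17), and with no count filter 2 were higher and 3 lower.

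Of 27 genes in the retinoid and aldo-keto list 17 were tested, with 7 higher and 6 lower (6 and 7 in the direct comparison). The share called was 76.5%, against 49.1% over all genes tested, with the limit of the count filter given above. Beside Crabp2, Stra6 and Akr1b7 above, Cyp26b1, which degrades retinoic acid, fell in both (-2.98 with DZNep and -1.32 with siEzh2), with a difference of -1.66 ± 0.12. Of 13 protocadherins and contactins, which mediate neural cell adhesion, 7 were tested, with 3 higher and 1 lower. Cntn1, contactin 1, had a difference of 0.96 ± 0.11 with a siEzh2 effect of -1.15, Pcdh17 one of 0.68 ± 0.13 and Pcdh19 one of 0.83 ± 0.18. Cntn6 was lower (-1.34 ± 0.33). In the direct comparison Cntn1 was at 0.28, Pcdh17 turned round to -0.32, Pcdh19 was at 1.34, and the call of Cntn6 was lost (-0.53).

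In 271 genes neither single effect was called but their difference was. That difference was at least 2-fold for 40 of the 271. The 4 named are the largest that met the conditions for named genes, such as a mean of at least 2 CPM in a group. They were Mgam2-ps, a pseudogene (-0.73 ± 0.29), Nav1, a neuron navigator (-0.71 ± 0.20), Pik3c2b, a lipid kinase (-0.63 ± 0.22), and Nat8l, which makes N-acetylaspartate (-0.63 ± 0.25). Their DZNep effects lay below 0 (-0.26, -0.29, -0.32 and -0.32 in that order) and their siEzh2 effects above it (0.47, 0.41, 0.32 and 0.30), none of them called. In the direct comparison Mgam2-ps was at -1.17, and Pik3c2b (0.16) and Nat8l (0.43) turned round. The call of Nat8l was lost or turned round in 12 of 19 alternative settings, among them the fits without DZNep replicates 1 or 3, DMSO replicates 1 or 2, siEzh2 replicates 2 or 3 and scr replicates 2 or 3. That of Mgam2-ps was lost in 10, among them the fits without DZNep replicates 2 or 3, DMSO replicates 1 or 2, siEzh2 replicates 2 or 3 and any scr replicate. That of Pik3c2b was lost in 7, with DMSO as the control of both treatments or without DZNep replicate 2, DMSO replicate 2, siEzh2 replicates 1 or 3, or scr replicates 2 or 3.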

How the data were processed

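The authors deposited whole-number read counts per gene for each library, with no normalization. Per the submitters' processing notes, STAR, featureCounts and the GRCm38 build were used. Which versions, which annotation and whether strand was used are not stated there, so reads of overlapping, antisense and near-identical genes may be shared, and 61 of the 134 named genes overlap another. Of 46078 identifiers, 45229 matched GENCODE M21, which gave symbols and coordinates, and 849 did not.

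The 12 libraries were fitted together in edgeR 4.0.16 (R 4.3.3) with 1 term for each group, TMM scaling, robust quasi-likelihood estimation and the default low-count filter. The filter kept 15053 genes, over which p-values were adjusted by Benjamini-Hochberg, and a call is an adjusted p under 0.05. Effects are log2 fold changes ± SE, and levels are CPM on scaled library sizes. Replicates varied by 6.83% (square root of the common dispersion, 0.00467). A group with 3 counts or fewer was taken as at the floor, which covers counting error only. Scripts were tested on simulated data.

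Named genes were Ezh2, Ezh1, the 12 largest differences each way among called genes (mean of at least 2 CPM in a group, libraries of 1 arm not overlapping, no predicted symbol), the 4 largest of each other class, 4 matched genes, and per list the 3 members with the smallest p and the first in the other direction. Other names were chosen after their values were seen, and some genes that the rule names are not reported here. The 29 lists held 890 symbols, of which 700 were tested, and some genes stand in more than one. Members and lists were chosen with earlier results of these data known. Promoter windows came from RefSeq (GRCm38.p6). Alternatives were other scalings, DESeq2 1.42.0, no filter, all 15 libraries, a replicate block, DMSO as the control of both treatments, and each library left out. Same-numbered libraries did not deviate together (correlation -0.181 to 0.247 over 18 pairs, 2 over 0.1), so the numbers were not taken to pair them.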

Additional observations from a re-analysis of the deposited data

How the results depend on the processing

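The numbers of genes called and of each class kept within 1.5 times their values under every alternative run, except with DMSO as the control of both treatments. There siEzh2 had 1753 calls, and the classes held 423 genes called only in the knockdown, 394 in both with the same sign, 547 with opposite signs, 1154 in neither and 319 matched, while those called only with DZNep numbered 6874. With that control, 37 of 134 named genes had a called difference that moved by over 1.5 times or was lost. Genes higher numbered 3302 to 4771 and genes lower 3444 to 4621, and leaving out 1 library in turn gave 3302 to 3924 and 3465 to 3918. The share of higher calls lay between 47.5% and 52.4%. No called difference changed sign, except 82 when both treatments were set against DMSO. With the replicate number as a block, 3637 genes were higher and 3701 lower, and 97.4% of the calls were shared. Same-numbered libraries share only a number, so this says nothing of pairing. With both treatments against DMSO, 9 named differences turned round: Traf3ip3 to -0.86, Tmem119 to -0.077, Pik3c2b to 0.16, Nat8l to 0.43, Ablim1 to 0.90, Pcdh17 to -0.32, Col1a2 to -0.55, Pdgfra to 0.50 and Vwf to 0.074. The cause was not tested. Under the same control, Arhgef19 (-0.59), Angptl6 (-1.68) and Gbp2 (1.27) gained a call, and 17 of the 46 list counts that moved by over 1.5 times did so. Genes with few counts outside DZNep (Prl2c5, Ripk4, Olfr1417, Ces1a, Mylk3, Rhox5, Tuba3b) are limited by depth.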

Other observations

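Promoter windows of genes with large differences held fewer CpG dinucleotides. The 300-base window held a median of 15 CpG for the 459 genes at least 2-fold higher and 18 for the 693 at least 2-fold lower, against 21 for the 4896 genes with no called difference. Over all called genes with a window, the median was 21 for the 2758 higher and 21 for the 2682 lower, as for the genes not called. The values are a description over genes, which are not independent, and no test was run.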
